A study of Mus musculus with 15 samples.

Results

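Interferon-stimulated antiviral genes are the genes that a cell switches on after an interferon binds its receptor. Here 49 of them, chosen as a list of gene symbols, were followed in MH-S cells, a line of mouse alveolar macrophages. All 49 were found by Ensembl identifier among the 78317 identifiers of the count table. RNA-seq libraries were made from 15 wells in 5 groups of 3. The cells were kept for 24 h in medium alone (M0), with LPS at 1 µg/ml plus IFN-γ at 20 ng/ml (M1), with 20 ng/ml IL-4 (M2), or with 0.1 mg/ml microrods of calcium phosphate (CaP) or silica (SiO2), both coated with the same polymers. Each microrod well received rods from its own preparation. LPS is a bacterial cell wall product that macrophages sense through TLR4, IFN-γ is the type II interferon, and IL-4 is the cytokine that drives alternative activation.

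Type I interferons signal through the receptor Ifnar1/Ifnar2 and the kinases Jak1 and Tyk2 to a complex, with Stat2 and Irf9 among its parts, that binds the interferon-stimulated response element (ISRE) in promoters. IFN-γ signals through Ifngr1/Ifngr2, Jak1 and Jak2 to the gamma-activated site (GAS). The proteins made in turn sense viral RNA, block its translation, degrade it, or alter the membranes through which viruses pass, and in alveolar macrophages they form part of the first barrier of the lung. Socs1, Socs3 and Usp18 are among the brakes that end the signal.

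The libraries held between 8459643 and 68750050 counts, so 1 count is worth a different level in each. Levels are CPM, counts scaled to the TMM-adjusted library size, and are given in the order of replicates 1, 2 and 3. Of the 49 genes, 44 had enough counts to be tested. A gene was called when it passed edgeR's quasi-likelihood test at an adjusted p of 0.05 and differed by more than 0.5 on the log2 scale in either direction. Fold changes are given on the log2 scale, ± the standard error. The replicates are separate wells of 1 cell passage, so p-values measure the spread between wells. All 8 macrophage markers were found in all libraries, with Cd68, Lyz2, Ptprc and Csf1r at 61.0 CPM or more. Adgre1 ran from 27.4 to 322 CPM and Itgam from 13.9 to 42.6 CPM. Itgax was low, from 1.57 to 4.93 CPM, and Mrc1 ran from 0.294 to 30.0 CPM. The alveolar markers Marco, Siglecf, Car4, Chil3 and Pparg did not exceed 2.82 CPM and Ear2 was at 0. Of 3 markers of plasmacytoid dendritic cells, which make much type I interferon in tissue, Siglech reached no more than 0.0860 CPM, while Tcf4 ran from 46.6 to 81.3 CPM and Bst2, itself one of the 49 genes, from 51.1 to 132 CPM. The summed level of 8 macrophage markers lay between 2711 and 3647 CPM in M0 and between 1451 and 2224 CPM in M2, and its part in the M2 results was not tested.

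In resting cells the antiviral genes were dominated by a single member. Ifitm3, a membrane protein that traps viruses in endosomes, measured 492, 558 and 578 CPM in the M0 libraries and made up 51.2% to 52.3% of the summed level of the 49 genes. Per kilobase of exon its mean was 800.2 CPM, against 71.3 for Bst2 (tetherin, which holds budding virions at the cell surface), 40.5 for Ifi27l2a, 27.7 for Oas1a and 25.2 for Ifi35. Bst2 measured 51.1, 79.1 and 62.9 CPM in M0. Of the transcript 31-mers of Ifitm3, 20.5% also occur in other genes, so part of its reads could have been divided among them.

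The summed level of the 49 genes was 954 to 1104 CPM in M0, 1789 to 1927 in M1, 651 to 898 in M2, 919 to 983 with CaP and 1008 to 1146 with SiO2 microrods. All M1 libraries lay above, and all M2 libraries below, those of M0. Without Ifitm3 the sum was 462 to 531 CPM in M0, 848 to 981 in M1 and 467 to 568 in M2. The M2 libraries then overlapped those of M0, while the M1 libraries stayed apart. In bulk RNA a change in every cell and a change in the share of cells that carry a transcript cannot be told apart.

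**Figure D1:**
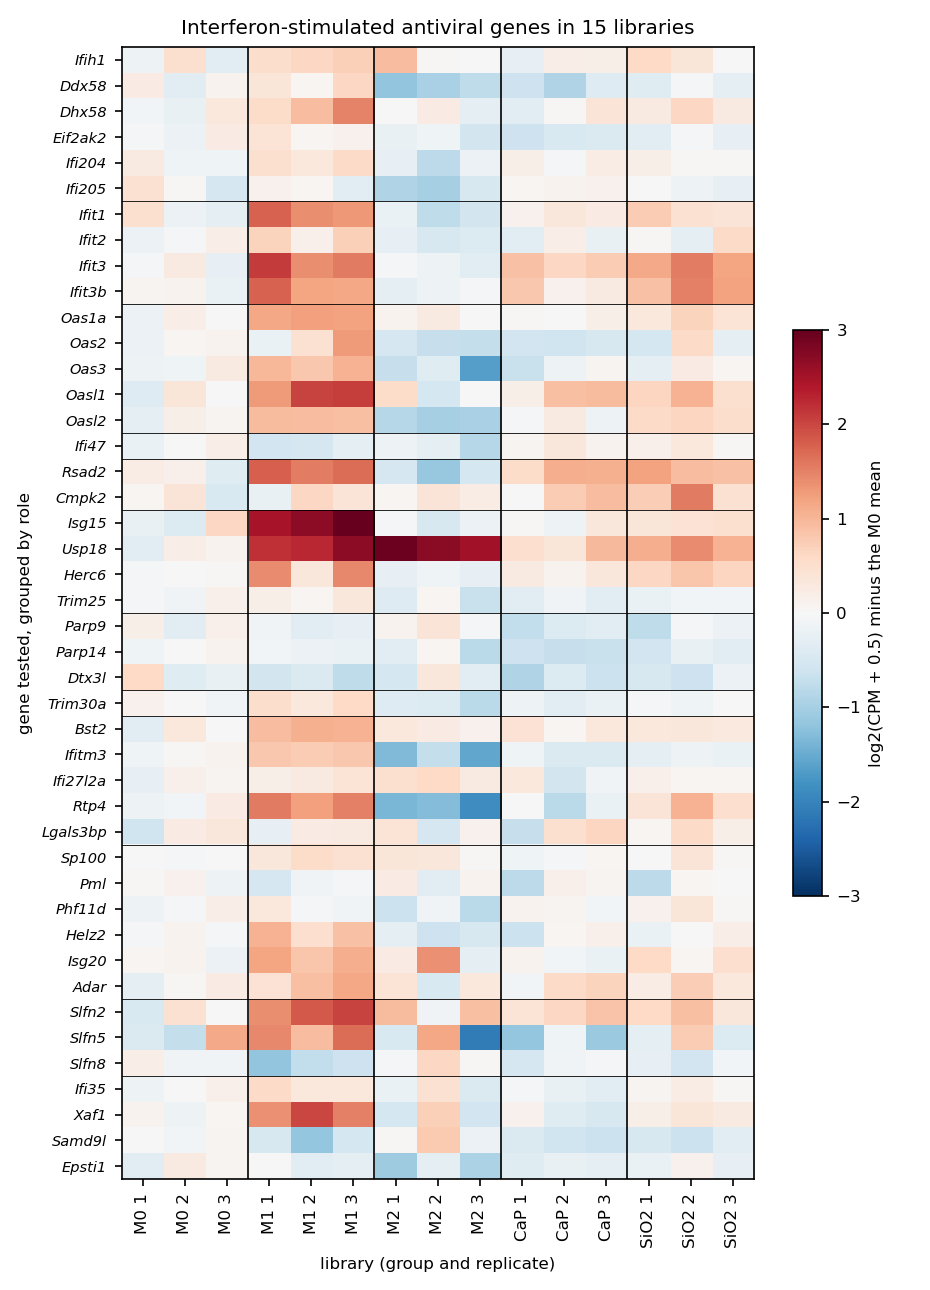
Level of the 44 genes tested (rows, grouped by role) in the 15 libraries (columns), as log2(CPM + 0.5) minus the mean of the 3 M0 libraries. The 3 M1 columns are red for the 17 genes called higher, with Isg15 the deepest, and Ifitm3, Oasl2 and Rtp4 are red in M1 and blue in M2.

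The first comparison asked how far the inflammatory stimulus of LPS and IFN-γ raised these genes. Against M0, 18 of the 44 genes tested were called in M1, 17 higher and 1 lower. That is 38.6% called higher, beside 9.70% of the 16654 genes tested in all, and 2.27% called lower, beside 4.37%. The median log2 fold change over the 44 genes was 0.81, beside -0.01 over all genes tested, and single members ranged from -1.60 to 3.42. In 26 of the 44 genes, or 59.1%, all M1 libraries lay above all M0 libraries, beside 20.2% of all genes tested. The other 26 tested members were not called in either direction, and the 27 genes with an unadjusted p below 0.05 made up 61.4%, beside 27.7% of all genes tested.

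The 2 largest fold changes were in the ISG15 system. Isg15 (ENSMUSG00000035692), a ubiquitin-like protein that is attached to other proteins during infection, measured 0.738, 0.585 and 1.74 CPM in M0 and 7.57, 8.75 and 12.3 CPM in M1. The lowest M1 library stood above the highest M0 library. Its log2 fold change was 3.42 ± 0.33 (adjusted p = 1.02e-05). Usp18 (ENSMUSG00000030107), the protease that removes Isg15 and dampens the type I receptor, went from 2.32, 3.51 and 3.24 to 15.4, 16.3 and 21.9 CPM, a log2 fold change of 2.60 ± 0.26 (adjusted p = 1.4e-05). Herc6, the ligase that attaches Isg15 in the mouse, measured 0.316, 0.325 and 0.347 CPM in M0 and 1.72, 0.547 and 1.75 CPM in M1, so that M1 replicate 2 was much closer to M0 than the other two M1 libraries, and it was called (1.97 ± 0.40, adjusted p = 0.00372). Trim25, the ubiquitin ligase that activates RIG-I, measured 27.5, 26.0 and 31.3 CPM in M0 and 31.9, 29.5 and 35.7 CPM in M1, overlapping ranges, and was not called (0.20 ± 0.18).

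Of the IFIT family, whose proteins bind foreign RNA and stop its translation, 3 of 4 members were called higher. Ifit3b measured 0.237, 0.260 and 0.116 CPM in M0 and 1.89, 1.09 and 1.07 CPM in M1 (2.56 ± 0.46, adjusted p = 0.00136). For Ifit3 the values were 0.474, 0.715 and 0.347 CPM in M0 and 3.78, 2.12 and 2.43 CPM in M1 (2.39 ± 0.33, adjusted p = 0.000229). Both were low genes whose groups did not overlap, and 61.8% of the 31-mers of Ifit3 and 55.2% of those of Ifit3b occur in other genes, nearly all in each other, so the split of reads between the pair is uncertain. Ifit1 went from 1.92, 1.04 and 0.927 to 5.42, 4.10 and 3.79 CPM (1.62 ± 0.29). Ifit2 measured 0.606, 0.715 and 0.927 CPM in M0 and 1.46, 0.889 and 1.55 CPM in M1 and was not called (0.87 ± 0.39, adjusted p = 0.164). Its M1 replicate 2 lay inside the M0 range.

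The OAS proteins make the short 2'-5' oligoadenylates that switch on RNase L, and 3 of 5 members were called higher. Oasl1, a family member without that enzyme activity that restrains Irf7 translation, measured 23.9, 40.8 and 31.9 CPM in M0 and 77.2, 131 and 134 CPM in M1 (1.83 ± 0.32, adjusted p = 0.00171). Oas1a went from 45.9, 59.5 and 51.1 to 117, 122 and 119.5 CPM (1.19 ± 0.15, adjusted p = 0.000118), although 68.8% of its 31-mers occur in other genes, chiefly Oas1g. Oasl2 went from 0.975, 1.50 and 1.39 to 2.92, 2.87 and 2.82 CPM (1.23 ± 0.24). In all 3 the lowest M1 library was above the highest M0 library. Oas3 measured 7.09, 7.28 and 9.73 CPM in M0 and 16.4, 14.3 and 16.8 CPM in M1, which do not overlap, but at an adjusted p of 0.0501 it just missed the call (1.00 ± 0.32). Oas2 measured 1.16, 1.43 and 1.51 CPM in M0 and 1.12, 2.05 and 3.98 CPM in M1, a spread that took in the M0 range, and was not called (0.83 ± 0.43).

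Rsad2 (viperin), an enzyme that makes a chain-ending nucleotide, measured 0.764, 0.715 and 0.347 CPM in M0 and 3.27, 2.67 and 3.01 CPM in M1 (2.13 ± 0.36, adjusted p = 0.00102). Its neighbour and partner Cmpk2, a nucleotide kinase, measured 0.211, 0.390 and 0 CPM in M0 and 0.0860, 0.547 and 0.389 CPM in M1, a few counts in each library, and was not called. Among the membrane and secreted proteins Rtp4, a chaperone of membrane receptors, went from 5.53, 5.85 and 7.41 to 19.3, 15.2 and 18.8 CPM (1.52 ± 0.27, adjusted p = 0.00174). Bst2 rose to 122, 132 and 130.0 CPM (0.99 ± 0.16) and Ifitm3 to 941, 926 and 946 CPM (0.79 ± 0.19, adjusted p = 0.012). Ifitm3 thus had the smallest fold of the 17 genes called higher but the largest difference in CPM. Without M0 replicate 1 its adjusted p was 0.0547 and the call was lost.

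Of the sensors and kinases 1 of 6 was called. Dhx58 (LGP2), the RIG-I-like receptor that lacks a signalling domain, measured 5.43, 4.88 and 7.30 CPM in M0 and 8.68, 11.5 and 17.0 CPM in M1 (1.10 ± 0.29, adjusted p = 0.0203). The call was lost without M0 replicate 1, M0 replicate 2 or M1 replicate 3, with an adjusted p of up to 0.110 over all alternatives. Slfn2, a Schlafen protein of immune cells, went from 19.6, 36.8 and 26.8 to 70.8, 98.1 and 111 CPM (1.76 ± 0.31, adjusted p = 0.00156). Xaf1, a pro-apoptotic protein, went from 21.8, 18.1 and 21.3 to 53.3, 83.3 and 59.3 CPM (1.68 ± 0.32). Both separated fully from M0. Helz2, a helicase and nuclear receptor co-activator, measured 2.77, 3.12 and 2.78 CPM in M0 and 6.45, 4.31 and 5.73 CPM in M1 (0.92 ± 0.28, adjusted p = 0.041), and its call was lost in 9 of 14 alternatives, among them without any single M0 library, without M1 replicate 1 and without M1 replicate 3, with an adjusted p of up to 0.146.

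A single member was called lower in M1. Slfn8, another Schlafen protein, measured 1.26, 0.911 and 0.927 CPM in M0 and 0.172, 0.410 and 0.486 CPM in M1 (-1.60 ± 0.46, adjusted p = 0.0319). The groups did not overlap, but these were few counts, 26.8% of its 31-mers occur in other genes, and the call was lost in 7 of 13 alternatives, among them without any single M1 library and without M0 replicate 1, with an adjusted p of up to 0.174.

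The other 21 tested members were not called in M1, and several of the best known sensors were among them. Ifih1 (MDA5), which senses long double-stranded RNA, measured 1.21, 2.15 and 1.04 CPM in M0 and 2.24, 2.46 and 2.62 CPM in M1. Ddx58 (RIG-I), which senses RNA ends, measured 2.50, 1.50 and 2.20 CPM in M0 and 2.75, 2.12 and 3.40 CPM in M1. The kinase Eif2ak2 (PKR), which halts translation, measured 14.9, 13.6 and 18.4 CPM in M0 and 20.7, 16.1 and 17.0 CPM in M1. The M1 libraries of Ifih1 all lay above M0, while those of Ddx58 and Eif2ak2 overlapped with M0. The DNA-binding Ifi204 measured 8.72, 6.50 and 6.49 CPM in M0 and 10.2, 9.09 and 11.0 CPM in M1. Its relative Ifi205 measured 10.0, 7.28 and 4.86 CPM in M0 and 7.82, 7.45 and 5.54 CPM in M1. For these 2 genes, 34.0% and 22.1% of the 31-mers occur in other genes, mostly Ifi211.

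Of the 6 nuclear and RNA-modifying members Helz2 alone was called in M1. Adar, which edits double-stranded RNA, measured 3.48, 4.42 and 5.21 CPM in M0 and 6.02, 8.48 and 10.3 CPM in M1 (0.96 ± 0.31, adjusted p = 0.0572). The exonuclease Isg20 measured 4.27, 4.49 and 3.59 CPM in M0 and 9.89, 7.66 and 9.23 CPM in M1 (1.09 ± 0.36, adjusted p = 0.0562). Both were apart from M0 in every library and near the threshold, and DESeq2 called both along with Oas3. Sp100 of nuclear bodies measured 15.2, 14.7 and 15.3 CPM in M0 and 19.3, 22.2 and 21.0 CPM in M1 (0.47 ± 0.16). Pml, which builds those bodies, measured 6.30, 6.76 and 5.44 CPM in M0 and 4.21, 5.67 and 6.03 CPM in M1, and Phf11d measured 15.8, 17.0 and 20.4 CPM in M0 and 22.1, 17.0 and 16.2 CPM in M1, both with overlapping groups.

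None of the 3 genes of the PARP group was called in M1. Dtx3l, the E3 ligase that pairs with Parp9, measured 50.9, 25.6 and 28.3 CPM in M0 and 22.5, 24.6 and 19.3 CPM in M1, so every M1 library was below M0 (-0.67 ± 0.28, adjusted p = 0.144). Parp9 measured 9.17, 6.37 and 9.15 CPM in M0 and 7.57, 6.36 and 6.80 CPM in M1. Parp14 measured 2.45, 2.80 and 3.01 CPM in M0 and 2.58, 2.39 and 2.33 CPM in M1. Samd9l, a restriction factor, was also below M0 in each M1 library, at 4.87, 4.55 and 5.21 CPM in M0 and 3.35, 1.91 and 3.21 CPM in M1 (-0.80 ± 0.30, adjusted p = 0.0888). The GTPase Ifi47 likewise measured 6.59, 7.68 and 8.92 CPM in M0 and 4.99, 5.26 and 6.22 CPM in M1 (-0.47 ± 0.23). None of these 5 passed the test. In all, 4 of the 44 genes tested, Slfn8 among them, had every M1 library below every M0 library. That is 9.09%, beside 12.0% of all genes tested.

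Of the remaining members not called in M1, Trim30a, which restrains Toll-like receptor signalling, measured 1.19, 1.04 and 0.927 CPM in M0 and 1.72, 1.44 and 1.85 CPM in M1. Ifi35 measured 38.6, 43.4 and 48.5 CPM in M0 and 65.3, 54.3 and 53.7 CPM in M1, and Ifi27l2a measured 15.7, 20.8 and 19.8 CPM in M0 and 21.2, 22.6 and 25.1 CPM in M1. In these 3 every M1 library was above M0, at log2 fold changes of 0.60, 0.41 and 0.30. Epsti1 measured 7.98, 12.3 and 10.8 CPM in M0 and 10.1, 7.93 and 8.16 CPM in M1. The secreted Lgals3bp measured 17.6, 31.8 and 34.1 CPM in M0 and 22.5, 31.8 and 32.5 CPM in M1. Slfn5 measured 3.27, 2.60 and 10.5 CPM in M0 and 13.2, 9.16 and 15.6 CPM in M1. Its M0 replicate 3, the smallest library of the group, stood far above the other two, and its counts over all 15 libraries lay between 40 and 161 while the library totals spanned the range given above.

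The 5 members not tested had few counts. Mx1, the antiviral dynamin-like GTPase, was at 0 counts in 12 of the 15 libraries and had at most 2 counts. Mx2 had at most 6 counts, and Ifi44 at most 3 counts, in any library. Trim30d had at most 6 counts. Zbp1, a sensor of Z-form nucleic acids, had 0, 0 and 1 count in M0 and 5, 2 and 5 counts in M1, so its M1 libraries were above M0, and it passed the test in M1 when no filter on low counts was applied. For the other 4 a change was not detectable at this depth.

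Promoters are shown for 6 of the genes called in M1, because they hold copies of the response element. Sequences come from RefSeq on GRCm38.p6, another build than that of the deposited counts, and cover the 200 bases before the annotated start of a transcript, read 5' to 3' along the gene. Capitals mark matches, overlapping ones joined, to the ISRE core TTCNNTTTC or its reverse complement GAAANNGAA, where N is any base. Isg15 lies at chr4:156200819-156201018, minus strand. Ifit1 lies at chr19:34640689-34640888, plus strand. Ifit3 lies at chr19:34583329-34583528, plus strand. Ifit3b lies at chr19:34607757-34607956, plus strand. Rsad2 lies at chr12:26456453-26456652, minus strand. Oas1a lies at chr5:120907526-120907725, minus strand.
Isg15: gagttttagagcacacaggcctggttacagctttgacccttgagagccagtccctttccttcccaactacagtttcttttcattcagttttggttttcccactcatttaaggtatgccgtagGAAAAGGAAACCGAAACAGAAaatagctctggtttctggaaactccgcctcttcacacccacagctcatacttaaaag
Ifit1: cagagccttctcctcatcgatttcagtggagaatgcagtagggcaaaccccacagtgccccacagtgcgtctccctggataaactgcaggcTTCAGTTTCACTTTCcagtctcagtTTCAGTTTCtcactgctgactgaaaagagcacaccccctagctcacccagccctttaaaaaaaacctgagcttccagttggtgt
Ifit3: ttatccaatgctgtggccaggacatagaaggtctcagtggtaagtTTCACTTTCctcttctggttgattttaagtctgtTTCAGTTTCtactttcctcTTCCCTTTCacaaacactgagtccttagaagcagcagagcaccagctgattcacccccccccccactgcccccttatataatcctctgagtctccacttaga
Ifit3b: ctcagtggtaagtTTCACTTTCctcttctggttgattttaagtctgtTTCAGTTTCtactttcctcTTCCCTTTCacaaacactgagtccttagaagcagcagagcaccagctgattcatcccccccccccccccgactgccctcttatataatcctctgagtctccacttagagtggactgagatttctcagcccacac
Rsad2: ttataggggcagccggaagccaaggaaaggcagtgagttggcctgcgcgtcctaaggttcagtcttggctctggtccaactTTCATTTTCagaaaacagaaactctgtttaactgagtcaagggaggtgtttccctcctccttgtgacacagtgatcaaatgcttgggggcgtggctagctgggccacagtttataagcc
Oas1a: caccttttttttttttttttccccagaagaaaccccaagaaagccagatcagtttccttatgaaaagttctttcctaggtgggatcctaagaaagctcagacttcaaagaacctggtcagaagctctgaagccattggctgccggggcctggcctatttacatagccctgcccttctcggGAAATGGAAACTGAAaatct
In Isg15 there were 3 matches that overlapped, starting 78, 72 and 66 bases before the start. Ifit1 had 3 matches, 109, 103 and 84 bases before. Ifit3 had 3 matches, 155, 121 and 102 bases before, and Ifit3b held the same 3 at 187, 153 and 134 bases before its own start. Rsad2 had 1 match, 119 bases before, and Oas1a had 2, at 20 and 14 bases before. Promoters from 250 bases before to 50 bases after a start were given for 38 of the 49 genes, and 21 of them, or 55.26%, held the ISRE core in at least 1 promoter, beside 9.761% of the 27025 genes in the same table. The GAS motif TTCNNNGAA, which is its own reverse complement and can overlap the ISRE core, was held by 8 of 38, or 21.05%, beside 9.554%. Among the members called higher in M1, 8 of 14 with a promoter, or 57.14%, held the ISRE core, and among those tested and not called 10 of 21, or 47.62%, did. A match is a description of these letters and not a measured binding site.

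The second comparison asked what IL-4 did to the same genes. In M2, 6 of the 44 genes were called (13.6%, beside 4.13% of all genes tested), 1 higher (2.27%, beside 2.00% of all genes tested) and 5 lower (11.4%, beside 2.13%). The median log2 fold change was -0.33, beside 0.07 over all genes tested. All M2 libraries lay below all M0 libraries in 12 genes, or 27.3%, beside 8.20%, and above them in 3 genes, or 6.82%, beside 7.03%.

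Usp18 was the member called higher, and its M2 libraries measured 26.5, 22.1 and 19.5 CPM against 2.32, 3.51 and 3.24 CPM in M0. The log2 fold change was 2.95 ± 0.26 (adjusted p = 1.32e-05), and the call was kept in all 14 alternatives. No other member of the ISG15 system was called in M2, and Isg15 itself measured 0.887, 0.526 and 0.773 CPM (-0.21 ± 0.40), within the range of M0 except for 1 library just below it.

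The 5 genes called lower were Rtp4, Oasl2, Ddx58, Ifitm3 and Trim30a. Ifitm3 measured 215, 330.2 and 184 CPM (-1.16 ± 0.19, adjusted p = 0.00289). Rtp4 measured 2.12, 2.24 and 1.35 CPM (-1.82 ± 0.31, adjusted p = 0.00414). Oasl2 measured 0.478, 0.395 and 0.401 CPM (-1.53 ± 0.29, adjusted p = 0.00865). In each of these 3 the highest M2 library was below the lowest M0 library. Ddx58 measured 0.614, 0.790 and 1.00 CPM (-1.27 ± 0.31, adjusted p = 0.0324). Trim30a measured 0.682, 0.658 and 0.386 CPM (-1.15 ± 0.29, adjusted p = 0.0383). These 2 also separated from M0. Without M2 replicate 3, by far the largest library, 3 members in place of 6 were called, and Ddx58, Oasl2 and Trim30a were the ones lost. Ddx58 was also lost without M0 replicate 1, M0 replicate 3 or M2 replicate 1, with an adjusted p of up to 0.269 over all alternatives, and Trim30a without any single M0 library, with one of up to 0.516. With M0 and M2 alone in the model 1 member, Usp18, was called. Rsad2, at 0.273, 0 and 0.258 CPM, had a log2 fold change of -1.51 without passing (adjusted p = 0.0976).

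**Figure D2:**
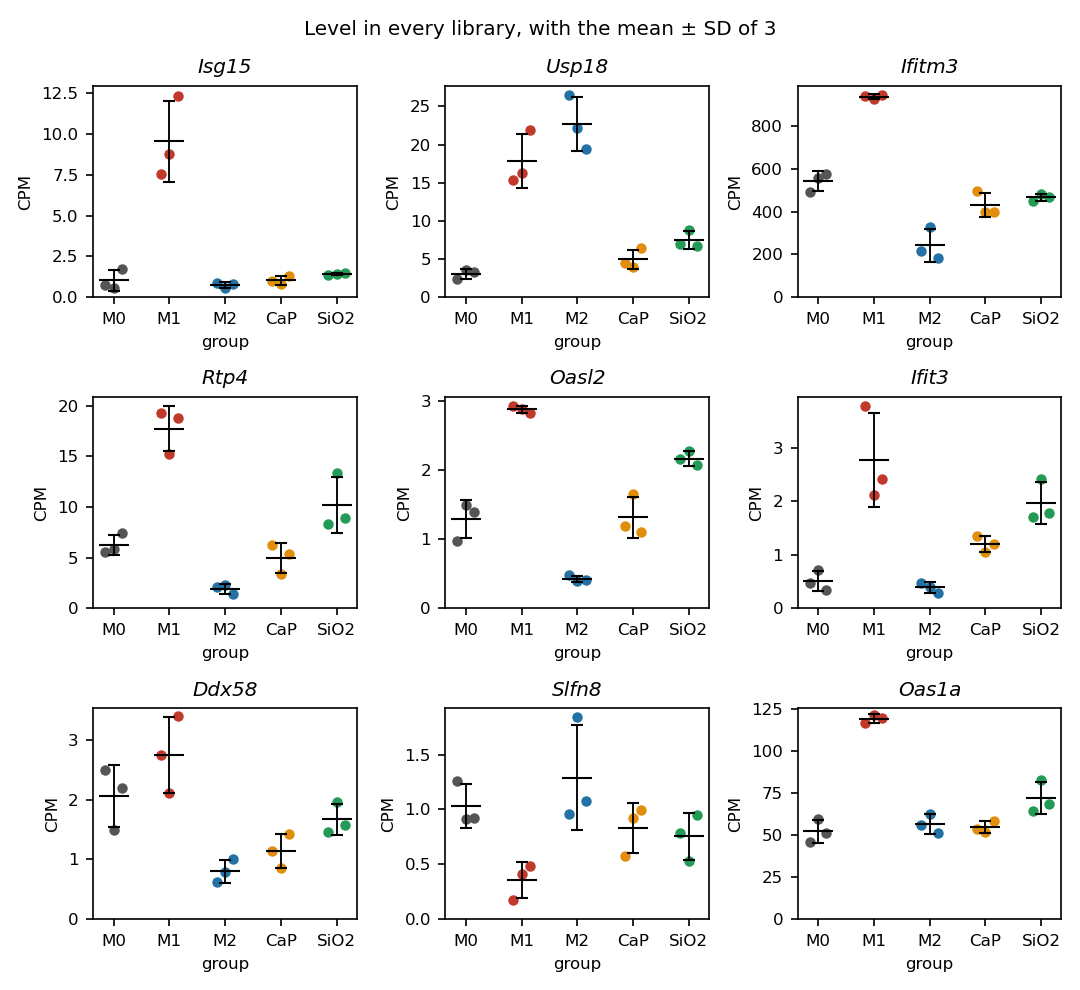
Level (CPM, linear axis from 0) of 9 genes in each of the 15 libraries, with the mean and SD of the 3 libraries per group as black lines. Usp18 is high in both M1 and M2, Ifitm3, Rtp4 and Oasl2 are highest in M1 and lowest in M2, and Ifit3 is above M0 in both microrod groups.

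Because M1 and M2 were set against the same M0 libraries, the difference between the 2 stimuli was tested directly, a comparison added after the data were seen. Here 24 of the 44 genes were called, 22 higher in M1, beside 10.6% of all genes tested, and 2 lower (4.55%, beside 5.46%). An unadjusted p below 0.05 was found for 31 of the 44, or 70.5%, beside 29.8%. The median log2 difference was 0.82, beside -0.04. Rsad2 (3.64 ± 0.41), Isg15 (3.63 ± 0.33) and Rtp4 (3.35 ± 0.31) differed most, with adjusted p-values of 1.96e-05, 3.76e-06 and 4e-06. Slfn8 (-1.70 ± 0.45) and Samd9l (-1.01 ± 0.29) were the 2 genes lower in M1 than in M2. Each of these 2 calls was lost in 4 alternatives. Slfn8 was lost without M1 replicate 1 or M1 replicate 2, with an adjusted p of up to 0.0919 over all alternatives, and Samd9l without M1 replicate 2 or M1 replicate 3, with one of up to 0.151. Usp18 showed no call, at -0.34 ± 0.23 (adjusted p = 0.318).

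Of the 44 genes, 3 were called higher in M1 and lower in M2 against M0, namely Ifitm3, Oasl2 and Rtp4. Joint calls were counted for the members alone, so whether these counts are unusual among all genes tested is not known. Usp18 was the gene called higher in both. A further 13 were called higher in M1 and not called in M2, Slfn8 was called lower in M1 and not in M2, Ddx58 and Trim30a were called lower in M2 and not in M1, and 24 were called in neither.

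**Figure D3:**
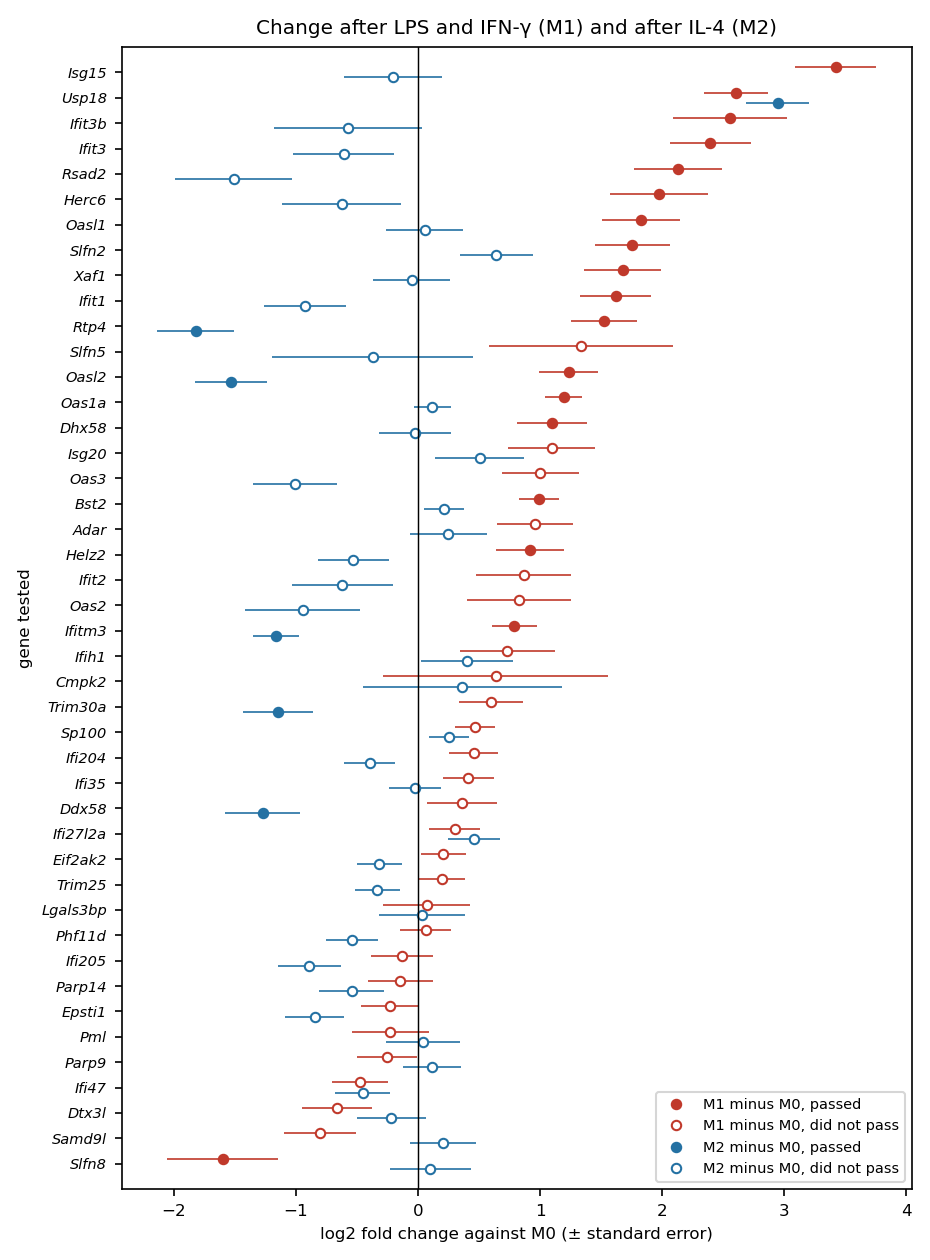
Log2 fold change against M0 in M1 and in M2 (horizontal axis, ± standard error) of the 44 genes tested (vertical axis, ordered by the M1 value). Both sets use the same 3 M0 libraries. Usp18 lies to the right in both, and Rtp4, Oasl2 and Ifitm3 lie right of 0 in M1 and left of 0 in M2.

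The microrod comparisons asked whether exposure to the rods without an added cytokine moved the antiviral genes. Uptake in these wells was not part of the data. With SiO2 microrods 2 of the 44 genes were called, both higher (4.55%, beside 0.222% of all genes tested), and none lower, beside 0.0420%. Ifit3 measured 1.71, 2.42 and 1.78 CPM against 0.474, 0.715 and 0.347 CPM in M0 (1.88 ± 0.33, adjusted p = 0.0315). Ifit3b measured 0.783, 1.51 and 1.11 CPM against 0.237, 0.260 and 0.116 CPM in M0 (2.27 ± 0.45, adjusted p = 0.0476), on 16, 20 and 28 counts. In both, every SiO2 library was above every M0 library. Since the pair shares most of its sequence, these are not 2 independent results. Both calls were lost when any single M0 or SiO2 library was left out, and the adjusted p reached 0.405 for Ifit3 and 0.481 for Ifit3b over all alternatives.

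Other members lay higher with SiO2 without passing. Usp18 measured 6.90, 8.85 and 6.66 CPM (1.34 ± 0.26, adjusted p = 0.0564), and DESeq2 called it. Rsad2 measured 2.01, 1.59 and 1.51 CPM (1.33 ± 0.36, adjusted p = 0.247). Cmpk2 measured 0.636, 1.51 and 0.436 CPM (1.76 ± 0.72). Herc6 measured 0.783, 0.983 and 0.793 CPM (1.36 ± 0.40), Oasl2 2.15, 2.27 and 2.06 CPM (0.82 ± 0.24) and Rtp4 8.27, 13.3 and 8.96 CPM (0.71 ± 0.27). In 11 genes, or 25.0%, all SiO2 libraries were above all M0 libraries, beside 9.10% of all genes tested, and in 3 genes, or 6.82%, all were below, beside 8.87%. An unadjusted p below 0.05 was found for 10 of the 44 genes (22.7%, beside 8.17%), all higher. The median log2 fold change was 0.19, beside -0.02 over all genes tested. Ifitm3 measured 449, 483 and 468 CPM, every library below M0 (-0.22 ± 0.19), and was not called.

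With CaP microrods no member was called by edgeR or by DESeq2, beside 0.654% of all genes tested with edgeR, and an unadjusted p below 0.05 was found for 11 (25.0%, beside 15.8%), of which 5 were higher and 6 lower. The 5 higher were Ifit3, Ifit3b, Rsad2, Usp18 and Oasl1, and the 6 lower were Ddx58, Eif2ak2, Parp9, Parp14, Dtx3l and Samd9l. Ifit3 measured 1.35, 1.05 and 1.20 CPM (1.23 ± 0.33, adjusted p = 0.11) and Usp18 4.47, 4.01 and 6.38 CPM (0.77 ± 0.26, adjusted p = 0.187). Ddx58 measured 1.15, 0.855 and 1.42 CPM (-0.83 ± 0.28, adjusted p = 0.187) and Eif2ak2 9.93, 11.2 and 11.3 CPM (-0.52 ± 0.18). All CaP libraries lay above M0 in 5 genes, or 11.4%, beside 7.33%, and below M0 in 8 genes, or 18.2%, beside 10.1%. The median log2 fold change was -0.05, beside 0.06.

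Set against each other, the 2 rod types differed in no member by the call, beside 0.0180% of all genes tested. An unadjusted p below 0.05 was found for 7 genes, all lower with CaP (15.9%, beside 1.66%). DESeq2 likewise called no member. Of the 44 genes 38 had a lower estimate with CaP than with SiO2, and the median log2 difference was -0.25, beside 0.03 over all genes tested. The share of all genes tested with a lower estimate was not counted. Some of the 44 genes share sequence, so they are not 44 independent results. In 15 genes, or 34.1%, all CaP libraries were below all SiO2 libraries, beside 4.67%, and in 1 gene, Ifi205 (2.27%, beside 3.43%), all were above. Rtp4 measured 6.21, 3.35 and 5.38 CPM with CaP and 8.27, 13.3 and 8.96 CPM with SiO2, a difference of -0.98 ± 0.26. Oasl2 measured 1.19, 1.64 and 1.10 CPM with CaP and 2.15, 2.27 and 2.06 CPM with SiO2 (-0.77 ± 0.22). Ifit3b measured 0.738, 0.263 and 0.349 CPM with CaP and 0.783, 1.51 and 1.11 CPM with SiO2 (-1.13 ± 0.35). No adjusted p in this comparison was below the threshold for any of the 44 genes, which does not show that the rods act alike. Both types were given at equal mass. The paper states that their densities differ, so equal mass holds different numbers of rods. The part of rod number in these differences was not tested.

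**Figure D4:**
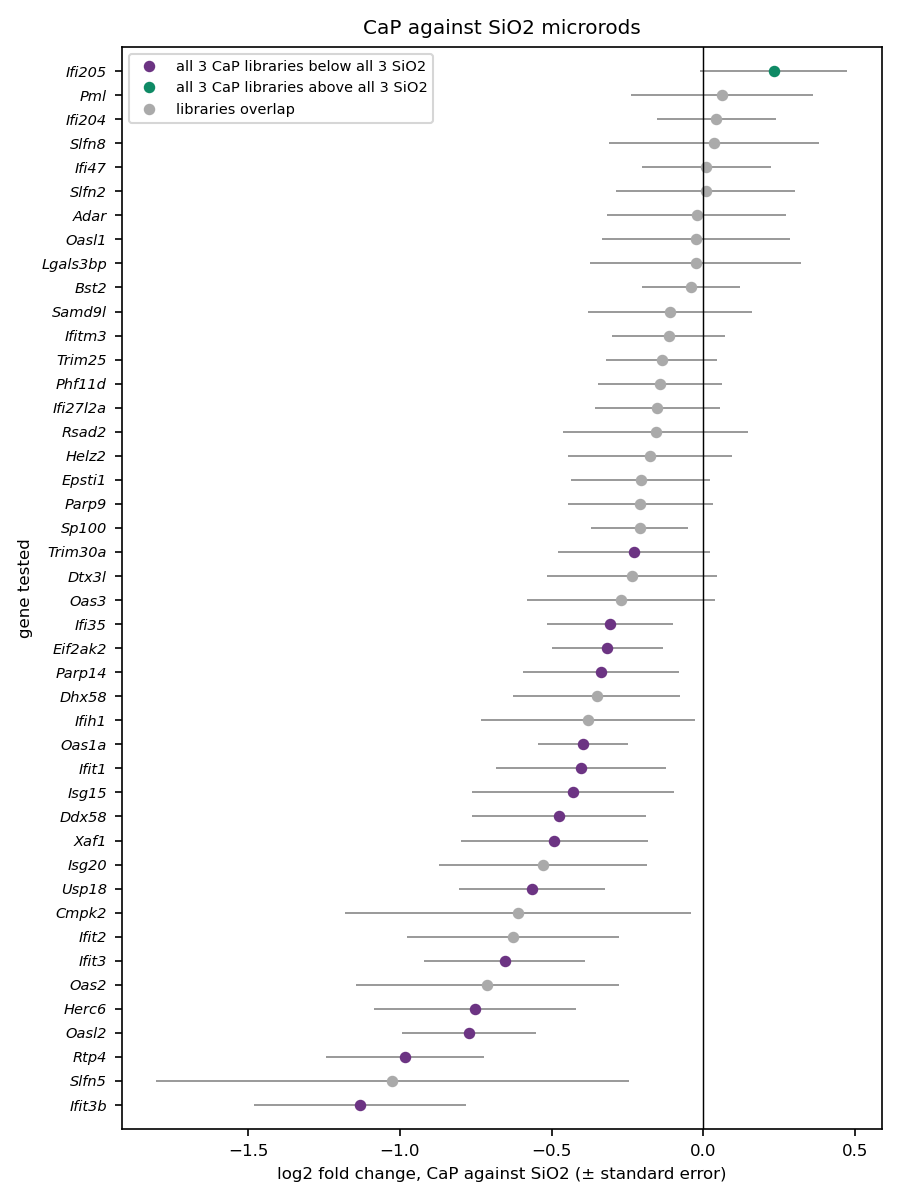
Log2 fold change of CaP against SiO2 microrods (horizontal axis, ± standard error) for the 44 genes tested (vertical axis, ordered by value), coloured by whether the 3 libraries of each group overlap. Of the 44 points 38 lie left of 0, and 15 genes have all CaP libraries below all SiO2 libraries. The share of all genes tested that lie left of 0 was not counted.

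The pathway upstream was followed through 45 further genes, of which 32 were tested. The 11 interferon genes listed, from Ifnb1 to Ifnl3, were at or near 0. Of these, 7 were at 0 in all 15 libraries and none had more than 1 count in any library. In M1, 11 pathway genes were called, 9 higher and 2 lower, or 28.1% and 6.25% of those tested, beside 9.70% and 4.37% of all genes tested. Without any single M0 library or M1 replicate 2 the number was 7, and without M1 replicate 3 it was 6. Which pathway genes lost the call was not recorded. In M2 2 were called, both higher (6.25%, beside 2.00%). With CaP or SiO2 microrods none was called by edgeR or DESeq2. An unadjusted p below 0.05 was found in 2 genes with CaP (6.25%, beside 15.8%) and in 3 with SiO2 (9.38%, beside 8.17%).

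Of the receptors, Ifngr1 was called lower in M1, at 54.6, 54.2 and 58.3 CPM against 99.5, 122 and 119 CPM in M0 (-1.03 ± 0.18, adjusted p = 0.00197). Ifngr2, Ifnar1 and Ifnar2 were not called in any comparison, and in M1 had log2 fold changes of 0.45, 0.44 and 0.42. The kinases Tyk2 (1.71 ± 0.40, adjusted p = 0.0116) and Jak2 (1.63 ± 0.49, adjusted p = 0.0418) were called higher in M1. Of the factors, Stat2 went from 2.56, 2.41 and 2.43 to 3.61, 5.13 and 6.80 CPM (1.05 ± 0.32, adjusted p = 0.0406). Irf9, which acts with Stat2, measured 11.6, 14.4 and 18.2 CPM in M0 and 22.7, 19.9 and 19.5 CPM in M1 and was not called (0.51 ± 0.23). Stat3 (0.85 ± 0.19) and the kinase Ikbke (1.57 ± 0.34) were called higher, and Irf1, itself a known target of IFN-γ, was called lower at 4.21, 4.17 and 4.28 CPM against 6.14, 8.20 and 7.41 CPM (-0.77 ± 0.21, adjusted p = 0.029).

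The 2 pathway genes called in M2 were also called in M1. Irf7, the factor that amplifies type I interferon, measured 5.82, 7.68 and 7.30 CPM in M0, 24.6, 39.4 and 47.2 CPM in M1 and 55.8, 20.8 and 39.7 CPM in M2 (2.44 ± 0.40 and 2.51 ± 0.40). Socs1, the inhibitor of JAK kinases, measured 0.369, 0.520 and 0.463 CPM in M0, 1.81, 7.66 and 10.9 CPM in M1 and 75.3, 12.5 and 139 CPM in M2 (3.97 ± 0.98 and 7.47 ± 0.95). All treated libraries of both genes were above M0, with a wide spread within M2, where replicate 2 was lowest. Socs1 was higher in M2 than in M1 by the direct test, at -3.50 ± 0.70 for M1 against M2 (adjusted p = 0.00355). Its relative Socs3 measured 1.90, 2.28 and 2.20 CPM in M0, 48.2, 75.3 and 76.5 CPM in M1 and 4.71, 1.32 and 3.82 CPM in M2, and was called in M1 (4.99 ± 0.41, adjusted p = 2.07e-06) and not in M2 (0.75 ± 0.42). The brakes Usp18 and Socs1 were thus called in both stimuli, while Isg15, the protein that Usp18 removes, was called in M1 and not in M2.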

How the data were processed

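The deposited table holds whole-number counts per Ensembl gene identifier of mRNA from 15 wells. The authors made Smart-seq2 libraries and processed paired-end reads with nf-core/rnaseq (STAR and Salmon); the submitters' processing notes name GRCm39. Salmon estimates counts, so the whole numbers may be rounded, and it set the split between near-identical genes. All columns were used. Symbols, exon lengths and shared 31-mers come from another annotation release, which named 51487 of the 78317 identifiers.

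Testing used edgeR 4.0.16 under R 4.3.3 (filterByExpr, TMM, quasi-likelihood, Benjamini-Hochberg over 16654 genes) in 1 model of all 15 libraries, with DESeq2 1.42.0 as an alternative. Both were tried on simulated data. Standard errors are the absolute log2 fold change divided by the square root of the quasi-likelihood F statistic. They carry the spread between wells of all groups in the model, with information shared across genes, and not that of the compared groups alone. Amplified reads without molecular identifiers are not independent molecules. The members, lists and tests were chosen with earlier results of these data known. Values in every library are given for the member with the largest change of each role in M1, the highest members in M0, members called in M2 or with microrods, and those not called in M1. Other members and pathway genes are named where called, or as receptors, Stat2, Irf9 or interferons, apart from an item that is not reported here. The comparison of M1 with M2 and the legacy quasi-likelihood were added after the data were seen. Alternatives changed the test, scaling, filter, depth, libraries, block or threshold.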

Additional observations from a re-analysis of the deposited data

Results flagged for a closer look

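For 3 genes the M1 and M2 groups were called in opposite directions from the same M0 libraries. They were picked for this, so their difference by edgeR's quasi-likelihood test of M1 against M2 is no independent support. That test was also added after the data were seen. The log2 difference was 1.95 for Ifitm3 (adjusted p = 8.05e-06), 2.77 for Oasl2 (adjusted p = 8.19e-06) and 3.35 for Rtp4 (adjusted p = 4e-06). Every M1 library was above, and every M2 library below, every M0 library in each of the 3. The M2 call against M0 was lost in 4 of 13 alternatives for Oasl2, and in 1 of 14 each for Ifitm3 and Rtp4. The M1 call against M0 was lost for Oasl2 in 1 of 13, without a filter on low counts (edgeR, adjusted p = 0.0573). For Ifitm3 it was lost in 1 of 14, without M0 replicate 1 (edgeR, adjusted p = 0.0547). For Rtp4 it was kept in all 14.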

How the results depend on the processing

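No called member reversed in the alternatives run, and every median log2 fold change kept its direction except that of CaP against M0, which was 0.04 without a filter on low counts. In M1 against M0, 18 members became 11 when every library had to hold 10 counts (median log2 fold change 0.45), and 14 to 17 without one library. Pathway genes called in M1 were 6 to 10 without one library. In M2 against M0, 6 members became 3 without a filter, 3 under that 10-count rule (median -0.05), 3 with counts thinned to the smallest library and 1 with M0 and M2 alone in the model. Without one library they were 3 to 9. The 2 pathway genes became 4 with DESeq2 and 1 under the 10-count rule, and 2 to 3 without one library. In SiO2 against M0, 2 members became 1 with DESeq2's size factors and 1 with the legacy quasi-likelihood. Under the 10-count rule 1 was called (Usp18, since Ifit3 and Ifit3b were not tested there). The number was 0 with thinned counts, with SiO2 and M0 alone and without any one library. It was also 0 with edgeR on the 9 libraries without M1 and M2. DESeq2 on those 9 libraries called Ifit3 and Usp18 (adjusted p = 0.00535 for Usp18) and not Ifit3b. On all 15 libraries DESeq2 called Ifit3, Ifit3b and Usp18. In M1 against M2, 24 members became 12 under the 10-count rule (median 0.59) and 15 with M1 and M2 alone, and were 19 to 29 without one library. The 9 pathway genes became 3 with M1 and M2 alone, and were 7 to 10 without one library. CaP gave 0 members in every setting, against M0 and against SiO2. A filter of 10 counts tests fewer genes and the thinned or smaller models hold less data; the cause of the other moves was not tested.

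The replicate numbers showed no pairing of the wells. Correlations between same-numbered libraries ran from -0.735 to 0.665 and 13 of 30 exceeded 0.1. Between differently numbered libraries they ran from -0.687 to 0.776 and 25 of 60 exceeded 0.1. Some wells of different groups thus deviated together, such as M0 replicate 3 and SiO2 replicate 2 at 0.776, and why was not tested. With a replicate block 17 members were called in M1, 5 in M2, 0 with SiO2, 0 with CaP and 23 in M1 against M2.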
